A study of Danio rerio with 6 samples.

Results

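The genes described here are the 9 enzyme genes that make and remove retinoic acid in the zebrafish, namely *rdh10a*, *rdh10b*, *aldh1a2*, *aldh1a3*, *dhrs3a*, *dhrs3b*, *cyp26a1*, *cyp26b1* and *cyp26c1*. The enzymes were chosen with earlier results of these data known. They were taken by name from the platform's gene table, and each had 1 probe set that named it alone. They are 9 of the 19260 genes that could be named in this way. Both genotypes were sampled at 4 days post fertilisation (dpf). The *il7r*-/- larvae (3 arrays) came from a CRISPR/Cas9 line with a single frameshifting deletion in *il7r*, the gene of the interleukin 7 receptor, and the WT larvae (3 arrays) were of the Tu (Tübingen) strain. Each array held RNA of whole larvae that had been pooled, and the mutant group stands for 1 line and 1 allele. RNA was read on the Affymetrix Zebrafish Gene 1.0 ST array, on which each value is a log2 signal of a probe set, so that a difference of 1 is a doubling of signal.

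Retinoic acid is a small signal molecule made from vitamin A. Retinol is first oxidised to retinal, mainly by Rdh10, and retinal is then oxidised to retinoic acid by the Aldh1a enzymes. Dhrs3 works against the first step by turning retinal back into retinol, and the Cyp26 enzymes hydroxylate retinoic acid so that it is cleared. In vertebrate embryos synthesis in some cells and breakdown in their neighbours shape the level of the signal, which patterns the hindbrain, the trunk and the eye. In the zebrafish eye *aldh1a2* is known from the dorsal retina and *aldh1a3* from the ventral retina, and *cyp26a1* and *dhrs3a* are known as genes that retinoic acid itself induces.

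None of the 9 genes passed the test in *il7r*-/- larvae. Of the 4 synthesis genes, all had overlapping groups, while 2 of the 3 breakdown genes and 1 of the 2 retinal reductase genes had every *il7r*-/- array below every WT array. The largest difference was in the breakdown gene *cyp26c1*, at -0.69 on the log2 scale (95% interval -0.99 to -0.39, n = 3 each), which is a signal 0.620 times that of WT. *dhrs3a* and *cyp26a1* differed by -0.37 and -0.35, and the other 6 by -0.17 to 0.14. The test was limma with p adjusted by Benjamini-Hochberg over the 75212 deposited probe sets. A gene was called when its adjusted p was under 0.05 and its signal differed by more than 1.5-fold (0.58 on the log2 scale). By this rule 0.234% of all genes were called (45 of 19260), so that 0 of 9 is close to that background. All 9 enzymes together had a median change of -0.07, against -0.02 over all 19260 genes. At an unadjusted p under 0.05 there were 3 of the 9 genes, against 12.3% of all genes. The groups lay apart with *il7r*-/- lower in 3 of the 9, against 13.4% of all genes, and with *il7r*-/- higher in 0 of the 9, against 8.84%.

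The *il7r* probe set itself had 1.42, 1.64 and 1.71 in *il7r*-/- larvae, against 1.40, 1.80 and 1.76 in WT larvae. These values overlap and lie among the lowest of all genes, and a deletion of a few bases need not lower the transcript, so they say nothing of the genotype. WT replicate 3 stood apart from the other WT arrays, with Pearson's correlation over probe sets of 0.965 with each, against 0.977 between WT replicates 1 and 2 and 0.979 to 0.980 among the *il7r*-/- arrays. No enzyme gene lies on the chromosome of *il7r* in the GRCz12tu gene table. Of the 9 genes, 4 averaged less than 3.905 and so lay in the lowest tertile of gene means, namely *rdh10b*, *dhrs3b*, *cyp26a1* and *cyp26c1*, and at such low signal a difference in transcript can be understated. Since probe sets differ in brightness, the order of their signals says how dim a probe set is, not how abundant a transcript is relative to another.

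**Figure D1:**
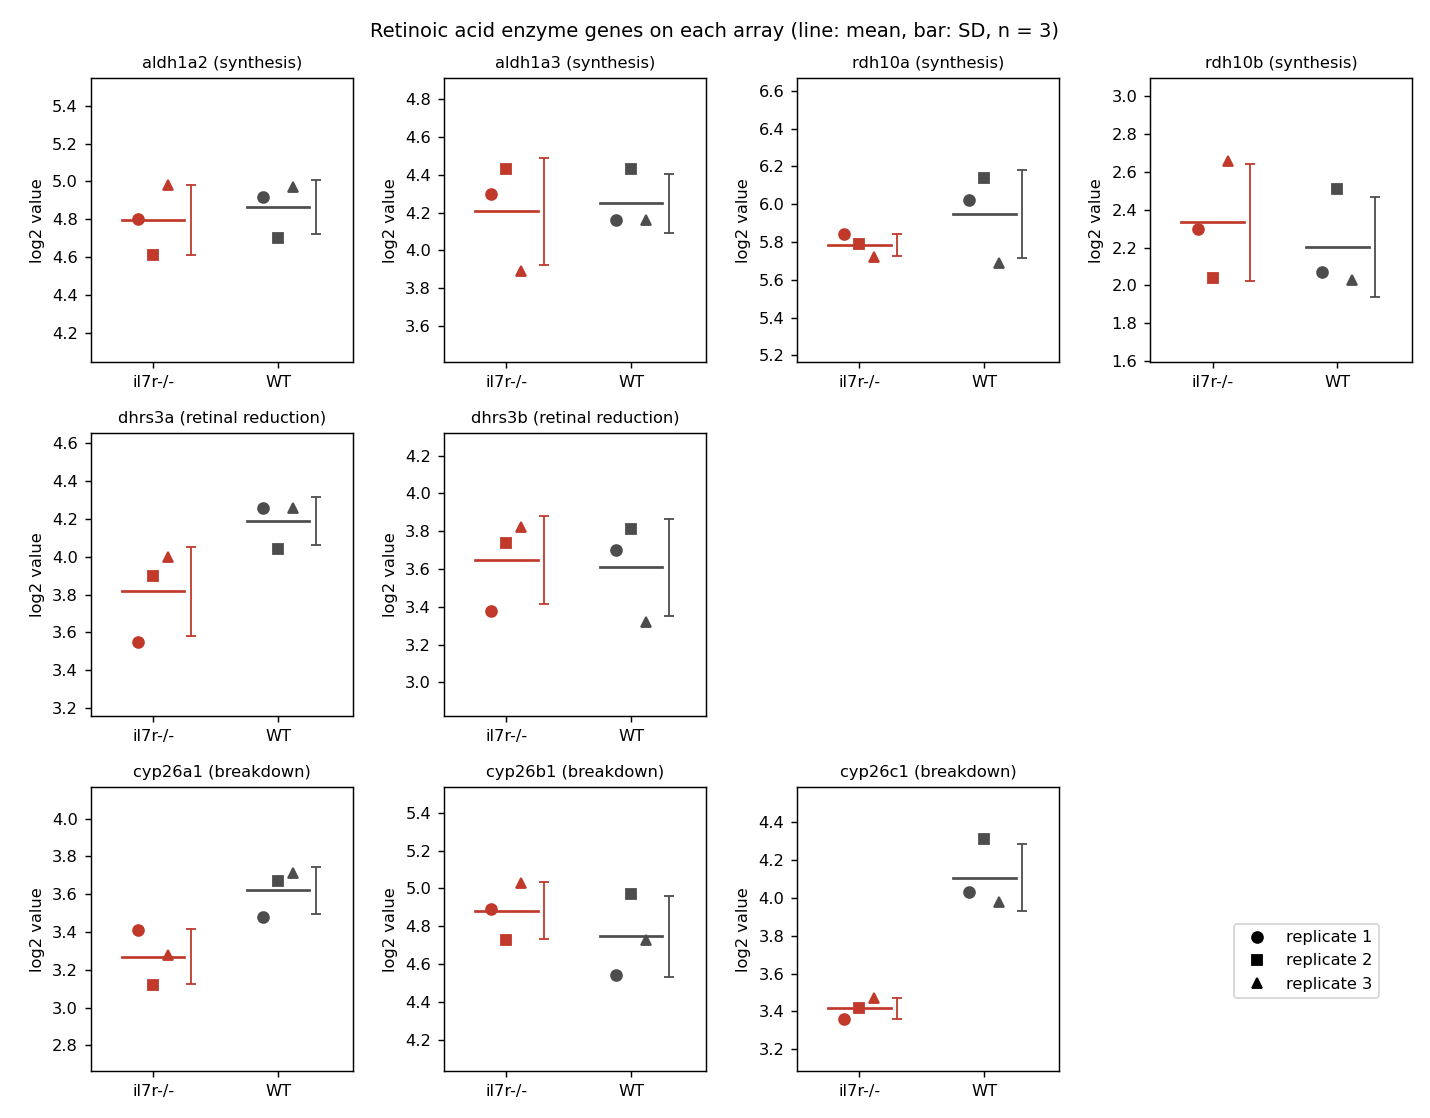
Log2 value of each retinoic acid enzyme gene (y axis, 1.5 units high in every panel) on the 3 *il7r*-/- arrays (red, left) and the 3 WT arrays (grey, right), with the mean as a line and the SD as a bar. The 3 *il7r*-/- arrays lie below the 3 WT arrays in *dhrs3a*, *cyp26a1* and *cyp26c1*, and the groups overlap in the other 6 panels.

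Synthesis starts with the retinol dehydrogenases. *rdh10a*, which oxidises retinol to retinal, had 5.84, 5.79 and 5.72 in *il7r*-/- larvae and 6.02, 6.14 and 5.69 in WT larvae. WT replicate 3 was the lowest of the 6 arrays, and the groups overlapped because of it. The change was -0.17 (standard error, SE, 0.14, limma adjusted p = 0.697) and was -0.30 (adjusted p = 0.352) without that array, where the groups no longer overlapped, but -0.07 (adjusted p = 0.887) without WT replicate 2. Its paralogue *rdh10b* was dim, with 2.30, 2.04 and 2.66 in *il7r*-/- larvae and 2.07, 2.51 and 2.03 in WT larvae. Its change of 0.13 (SE 0.21, limma adjusted p = 0.850) was smaller than the SD of either group, 0.31 in *il7r*-/- and 0.27 in WT.

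The second step is the oxidation of retinal to retinoic acid. *aldh1a2*, the main retinaldehyde dehydrogenase of the early embryo, had 4.80, 4.61 and 4.98 in *il7r*-/- larvae and 4.92, 4.70 and 4.97 in WT larvae. The highest and the lowest of these 6 values were both from *il7r*-/- arrays. The change was -0.07 (SE 0.14, limma adjusted p = 0.890), with a 95% interval of -0.41 to 0.27. *aldh1a3*, the ventral eye enzyme, had 4.30, 4.43 and 3.89 in *il7r*-/- larvae and 4.16, 4.43 and 4.16 in WT larvae. *il7r*-/- replicate 3 was the lowest array, while the highest value occurred in both groups, and the change was -0.04 (SE 0.17, limma adjusted p = 0.946), with a 95% interval of -0.46 to 0.37. The signs of *aldh1a2*, *aldh1a3*, *rdh10b* and the reductase gene *dhrs3b* turned when single arrays were left out, so no direction is given for these 4 genes.

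The retinal reductases return retinal to retinol. *dhrs3a* had 3.55, 3.90 and 4.00 in *il7r*-/- larvae and 4.26, 4.04 and 4.26 in WT larvae. The groups lay apart by only 0.04, between *il7r*-/- replicate 3 and WT replicate 2, and *il7r*-/- replicate 1 was the lowest array. The change of -0.37 (SE 0.15, limma adjusted p = 0.412, unadjusted p = 0.0486) did not pass, and without *il7r*-/- replicate 1 it was -0.24. *dhrs3b*, its paralogue, had 3.38, 3.74 and 3.82 in *il7r*-/- larvae and 3.70, 3.81 and 3.32 in WT larvae. Each genotype had 1 low array, and the change was 0.04 (SE 0.18, limma adjusted p = 0.958).

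Breakdown is the work of 3 cytochrome P450 genes. *cyp26c1*, known in zebrafish from the developing hindbrain, had 3.36, 3.42 and 3.47 in *il7r*-/- larvae and 4.03, 4.31 and 3.98 in WT larvae. The *il7r*-/- arrays lay close together, and a gap of 0.51 separated the highest of them from the lowest WT array. The mean was 3.42 ± 0.06 in *il7r*-/- larvae and 4.11 ± 0.18 in WT larvae (SD, n = 3 each), and the change of -0.69 (SE 0.13, limma adjusted p = 0.117, unadjusted p = 0.00115) was the only one of the 9 past the 1.5-fold bound. It did not pass over all 75212 probe sets. With the test limited to the 20806 probe sets naming a single gene it was called (adjusted p = 0.0391), as 1 of 9 enzymes, against 1.11% of all genes. The methods' test without adjustment, an analysis of variance, also called it and no other enzyme, against 2.47% of all genes, and with Benjamini-Hochberg adjustment it did not (adjusted p = 0.226).

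*cyp26a1*, the enzyme that retinoic acid induces in a feedback loop, had 3.41, 3.12 and 3.28 in *il7r*-/- larvae and 3.48, 3.67 and 3.71 in WT larvae. The groups lay apart by 0.07, between *il7r*-/- replicate 1 and WT replicate 1. The change of -0.35 (SE 0.13, limma adjusted p = 0.359, unadjusted p = 0.0306) did not pass. *cyp26b1*, which in zebrafish is needed for normal cartilage and bone, had 4.89, 4.73 and 5.03 in *il7r*-/- larvae and 4.54, 4.97 and 4.73 in WT larvae. These overlapped, and the change was 0.14 (SE 0.15, limma adjusted p = 0.772), with a 95% interval of -0.23 to 0.50. It was 0.03 without WT replicate 1 and 0.25 without WT replicate 2.

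**Figure D2:**
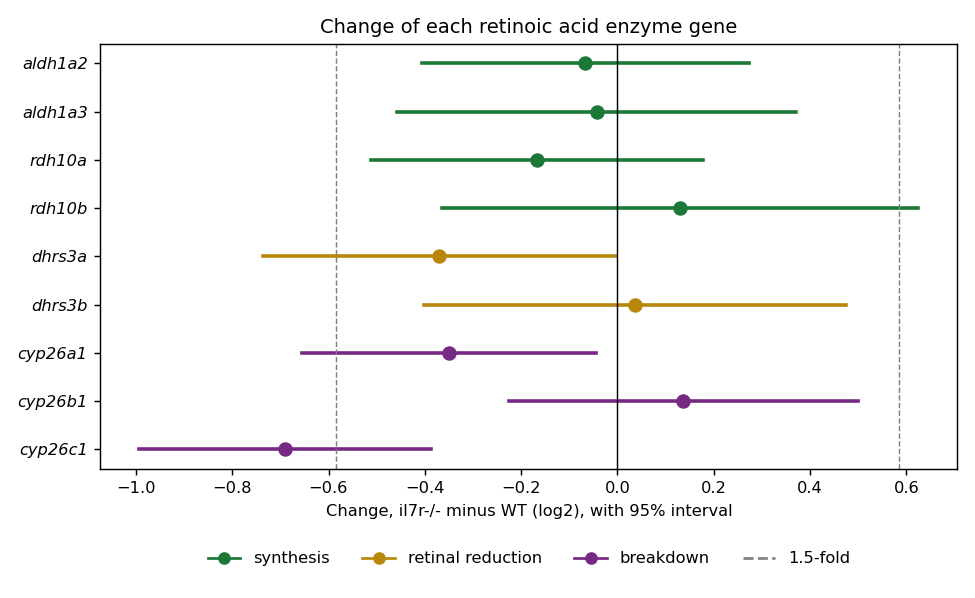
Change of each enzyme gene (point, *il7r*-/- minus WT on the log2 scale) with its 95% interval from limma (line), coloured by role, with dashed lines at a 1.5-fold change either way. The intervals of *cyp26c1*, *cyp26a1* and *dhrs3a* lie below 0, those of the other 6 genes hold 0, and none was adjusted for the number of genes tested.

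The intervals also show what these arrays could and could not resolve. For 5 of the 9 genes, *aldh1a2*, *aldh1a3*, *rdh10a*, *dhrs3b* and *cyp26b1*, the 95% interval lay within a 1.5-fold change in both directions. For *rdh10b* it reached 0.63, and for *dhrs3a* and *cyp26a1* -0.74 and -0.66, so the intervals of these 3 held changes past that bound as well as smaller ones. The same holds for *cyp26c1*, with an interval of -0.99 to -0.39. The SE ran from 0.13 to 0.21 over the 9 genes.

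Within a role, 6 pairs of genes were compared by their log2 difference on each array, which tests whether the 2 genes differ in change. The difference *cyp26b1* minus *cyp26c1* was 1.53, 1.31 and 1.56 on the *il7r*-/- arrays and 0.51, 0.66 and 0.75 on the WT arrays. It was higher by 0.83 in *il7r*-/- larvae, with no overlap. *cyp26a1* minus *cyp26b1* was -1.48, -1.61 and -1.75 on the *il7r*-/- arrays and -1.06, -1.30 and -1.02 on the WT arrays, lower by 0.49 and again with no overlap. *dhrs3a* minus *dhrs3b* was 0.17, 0.16 and 0.18 on the *il7r*-/- arrays and 0.56, 0.23 and 0.94 on the WT arrays. The 3 *il7r*-/- values differed by no more than 0.02, while the WT values were spread. Each of these 3 pairs had p = 0.1 (exact permutation test, two-sided), the smallest that 3 arrays against 3 allow, and p = 0.2 after Benjamini-Hochberg adjustment over the 6 pairs, so none could pass. The other pairs overlapped, with exact permutation p of 0.2 for *cyp26a1* and *cyp26c1*, 0.4 for *rdh10a* and *rdh10b* and 1 for *aldh1a2* and *aldh1a3*. Each of the 3 pairs without overlap holds a gene whose own groups lay apart. The share of such pairs over all genes was not computed.

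Synthesis was then set against breakdown by the mean log2 value of each role on each array, as a description without a test. The breakdown mean of the 3 Cyp26 genes was 3.89, 3.76 and 3.93 on the *il7r*-/- arrays and 4.02, 4.32 and 4.14 on the WT arrays. All *il7r*-/- arrays were below all WT arrays, by 0.30 on average. The synthesis mean of the 4 *rdh10* and *aldh1a* genes was 4.31, 4.22 and 4.31 on the *il7r*-/- arrays and 4.29, 4.45 and 4.21 on the WT arrays, a difference of -0.04 with full overlap. The mean of *dhrs3a* and *dhrs3b* was 3.73 ± 0.24 in *il7r*-/- larvae and 3.90 ± 0.10 in WT larvae (SD, n = 3 each), with overlap.

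Synthesis minus breakdown was 0.42, 0.46 and 0.39 on the *il7r*-/- arrays and 0.28, 0.13 and 0.07 on the WT arrays. It was thus higher in *il7r*-/- larvae by 0.26, with no overlap, and by 0.22 to 0.32 when each array was left out in turn. With the 2 *dhrs3* genes counted as breakdown it was higher by 0.21. The size of this contrast on a single array depends on the brightness of the probe sets and has no meaning of its own. How often such means or contrasts of other genes lie apart between the groups was not computed. Within the breakdown mean *cyp26c1* and *cyp26a1* lay lower while *cyp26b1* had the opposite sign. The lack of overlap rests on *cyp26c1*, a dim gene. By the array values given above, the mean of *cyp26a1* and *cyp26b1* alone overlaps between the groups, and so does synthesis minus that mean.

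**Figure D3:**
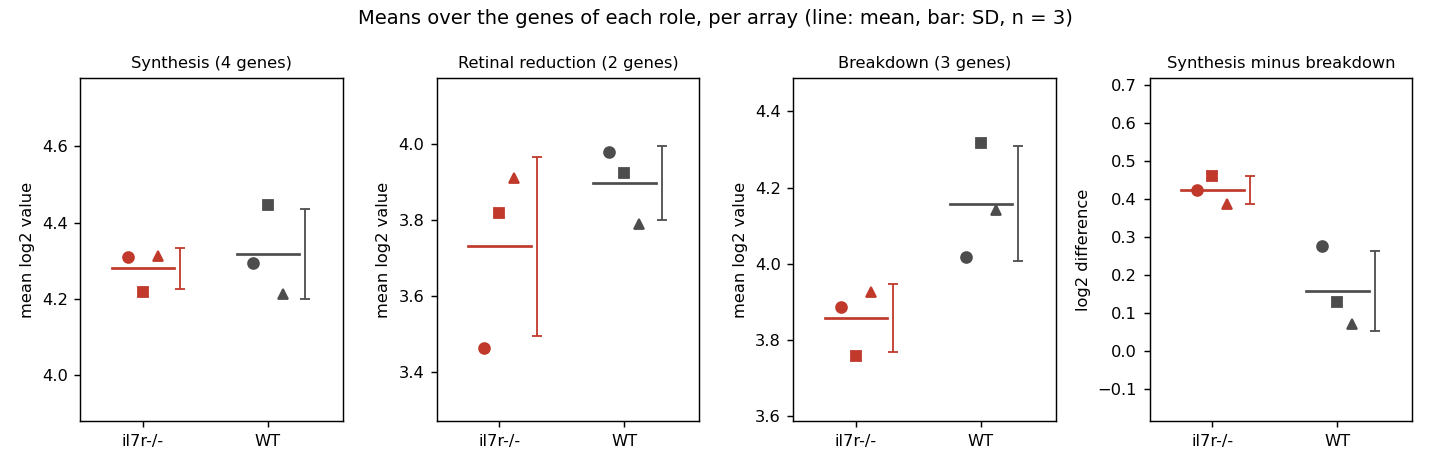
Mean log2 value over the genes of each role and the synthesis mean minus the breakdown mean (y axes, 0.9 units high), for the 3 *il7r*-/- arrays (red, left) and the 3 WT arrays (grey, right), with the group mean as a line and the SD as a bar. The breakdown means of *il7r*-/- larvae, 3.76 to 3.93, lie below those of WT larvae, 4.02 to 4.32, while the synthesis means overlap.

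The direction of these changes depended on single arrays only where the change was small. *cyp26c1* ranged from -0.75 to -0.59 when each array was left out in turn, *cyp26a1* from -0.42 to -0.28 and *dhrs3a* from -0.46 to -0.24. Groups that lie apart cannot come to overlap when an array is left out, so the 3 genes stayed apart by construction, and *rdh10a* joined them without WT replicate 3. No enzyme was called in any of the 6 fits. Of all 19260 genes, 0 were called without any 1 of the *il7r*-/- arrays. Without WT replicates 1, 2 and 3 the count was 1, 2 and 61, so few genes could be called in most of these fits.

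**Figure D4:**
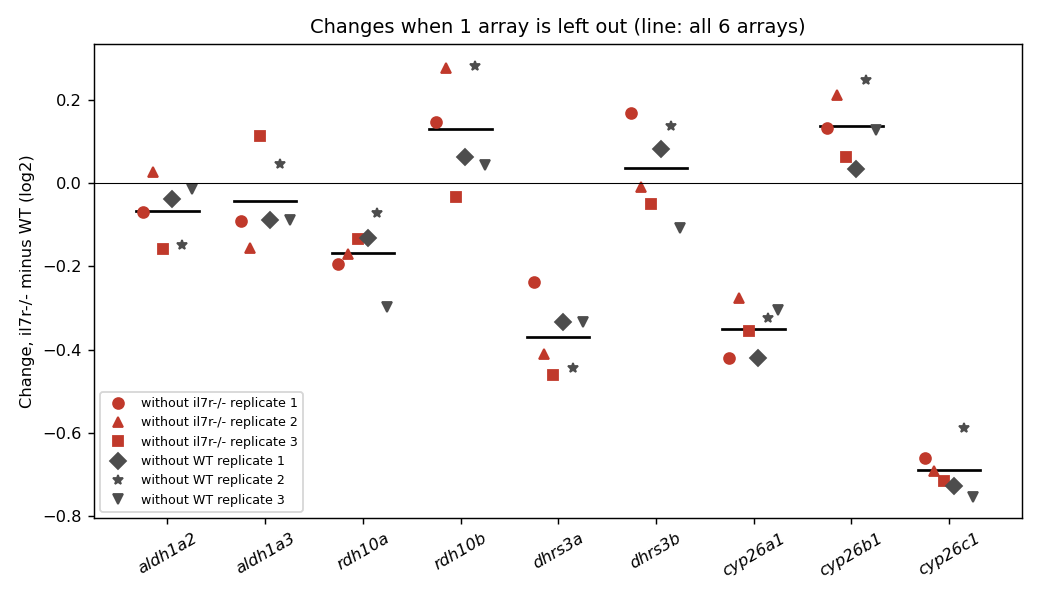
Change of each enzyme gene (y axis, *il7r*-/- minus WT on the log2 scale) with all 6 arrays (line) and with 1 array left out (symbols, red for an *il7r*-/- array and grey for a WT array). *cyp26c1* stays between -0.75 and -0.59, while *aldh1a2*, *aldh1a3*, *rdh10b* and *dhrs3b* have symbols on both sides of 0.

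Retinoic acid acts through nuclear receptors, the Rar proteins, which bind it, and their Rxr partners. All 10 receptor genes were measured, and none was called. Their changes ran from -0.36 to 0.11 with a median of -0.06, and 7 of 10 were below 0, as were 10599 of all 19260 genes. *rxrgb* was the only one whose groups lay apart (13.4% of all genes did so in this direction), with 4.36, 4.25 and 3.90 in *il7r*-/- larvae and 4.45, 4.62 and 4.53 in WT larvae, a change of -0.36 (limma adjusted p = 0.407). The 4 *rar* genes *raraa*, *rarab*, *rarga* and *rargb* had changes of 0.03, -0.04, 0.07 and 0.11, and the other 5 *rxr* genes, *rxraa*, *rxrab*, *rxrba*, *rxrbb* and *rxrga*, lay between -0.16 and -0.04.

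The Crabp proteins bind retinoic acid in the cytoplasm and carry it to the receptors or to Cyp26. All 4 genes had a change above 0, as did 8661 of all 19260 genes, and none was called. *crabp1b* had 4.81, 4.23 and 4.56 in *il7r*-/- larvae and 4.16, 4.21 and 3.86 in WT larvae, a change of 0.46 (SE 0.18, limma adjusted p = 0.398). The groups lay apart by 0.02, between *il7r*-/- replicate 2 and WT replicate 2. The groups of *crabp1a* also lay apart, with a change of 0.13, which makes 2 of 4 higher against 8.84% of all genes, whereas *crabp2a* and *crabp2b* overlapped, with changes of 0.23 and 0.01.

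Retinol reaches these enzymes through carriers, carotenoid cleavage and storage as esters. Of 21 listed genes of supply and storage 15 were measured, and none was called. 12 of the 15 were below 0, as were 10599 of all 19260 genes. The list median was -0.14, and 4 genes had *il7r*-/- below WT on every array, against 13.4% of all genes. These 4 were *stra6*, a membrane receptor for the retinol carrier (-0.39, limma adjusted p = 0.334), *rbp2a*, a cellular retinol-binding protein gene (-0.38), *lratb.2*, a retinol esterifying enzyme gene (-0.50), and *ttr*, a carrier protein gene of the blood (-0.22), all chosen after their values were seen. The brightest genes of the list were *rbp4*, the blood carrier of retinol, with a change of -0.17, and *dgat1a*, with 0.28. *rbp4* had 7.72, 7.54 and 7.59 in *il7r*-/- larvae and 8.13, 8.11 and 7.12 in WT larvae. Its groups overlapped because of WT replicate 3. That array was also the lowest for *dgat1a*, at 4.88, and the groups of *dgat1a* overlapped.

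Of 20 other genes of retinoid oxidation and reduction 17 were measured, and none was called. Below 0 were 14 of the 17, against 10599 of all 19260 genes, and the list median was -0.17. The groups lay apart in 6, all with *il7r*-/- lower, against 13.4% of all genes lower and 8.84% higher. *rdh8a*, a photoreceptor enzyme that reduces all-trans-retinal in the visual cycle, had 4.72, 4.87 and 4.75 in *il7r*-/- larvae and 5.57, 5.56 and 5.50 in WT larvae, a change of -0.76 (SE 0.10, limma adjusted p = 0.0563). *rdh5*, a visual cycle enzyme of the pigment epithelium, differed by -1.24 (SE 0.28, limma adjusted p = 0.185). Both were chosen after their values were seen. The brightest of the list were *adh5*, with a change of -0.11, and *rdh12*, with -0.26. In this list 1 or 2 genes were called under 5 of the 17 alternative settings. Those settings called 80 to 475 genes in all, against 45 in the main test.

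Genes known to respond to retinoic acid were also read. Of 23 listed 19 were measured and none was called. 11 were above 0 and 8 below, with a median of 0.07. The groups lay apart in 9, with *il7r*-/- higher in 7 and lower in 2, against 8.84% and 13.4% of all genes. This list leaves out the enzyme genes *cyp26a1* and *dhrs3a*, which retinoic acid is also known to induce. Their groups lay apart with *il7r*-/- lower, at -0.35 and -0.37. Of the 8 measured *hox* genes, which set position along the hindbrain and trunk, 5 lay apart, all higher in *il7r*-/- larvae, a subset taken after the values were seen. *hoxb6b* had 5.25, 5.44 and 5.68 in *il7r*-/- larvae and 5.11, 4.59 and 4.38 in WT larvae, a change of 0.76 (SE 0.22, limma adjusted p = 0.257). *hoxb5b* had 6.73, 6.76 and 6.62 in *il7r*-/- larvae and 6.28, 6.32 and 6.22 in WT larvae, a change of 0.43 (SE 0.10, limma adjusted p = 0.196). *hoxb3a*, *hoxd4a* and *hoxb5a* had changes of 0.34, 0.24 and 0.23, and *hoxb4a*, *hoxa1a* and *hoxb1a*, whose groups overlapped, 0.16, 0.07 and 0.02. *pdx1*, a pancreas factor, differed by 0.47, and the nuclear receptor gene *nr2f2* and the corepressor gene *nrip1b* by -0.23 each with *il7r*-/- lower on every array. *nr2f1a*, the brightest of the list, differed by 0.12. Apart from *hoxb3a* and *nr2f1a* the genes of this list named here were chosen after their values were seen.

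Genes that mark the dorsal and ventral eye, where *aldh1a2* and *aldh1a3* are known to be active, did not pass either. They were read in whole larvae, and several are also active outside the eye, such as *pax2a* in the hindbrain. Their values are thus not those of the eye alone, and patterning of the eye was not tested. Of the 12 measured, none was called, and 8 were below 0, against 10599 of all 19260 genes. The list median was -0.015. The ventral genes *vax1* and *vax2* differed by -0.01 and -0.02, and the dorsal genes *tbx5a* and *gdf6a* by -0.01 and 0.10. *tbx5a* was dim, with a mean of 3.67 in the lowest tertile. *tbx2a* had 6.44, 6.40 and 6.31 in *il7r*-/- larvae and 7.02, 7.05 and 6.56 in WT larvae, a change of -0.49 (SE 0.16, limma adjusted p = 0.307), and *tbx2b* differed by -0.21. *pax2a* was higher in *il7r*-/- larvae on every array, by 0.18. The groups thus lay apart in 1 of the 12 genes with *il7r*-/- lower, *tbx2a*, against 13.4% of all genes. With *il7r*-/- higher they lay apart in 1, *pax2a*, against 8.84%. *bmp4*, *efnb1*, *efnb2a*, *ephb2b* and *ephb3a* overlapped, with changes of -0.21, -0.16, -0.14, 0.04 and 0.22.

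**Figure D5:**
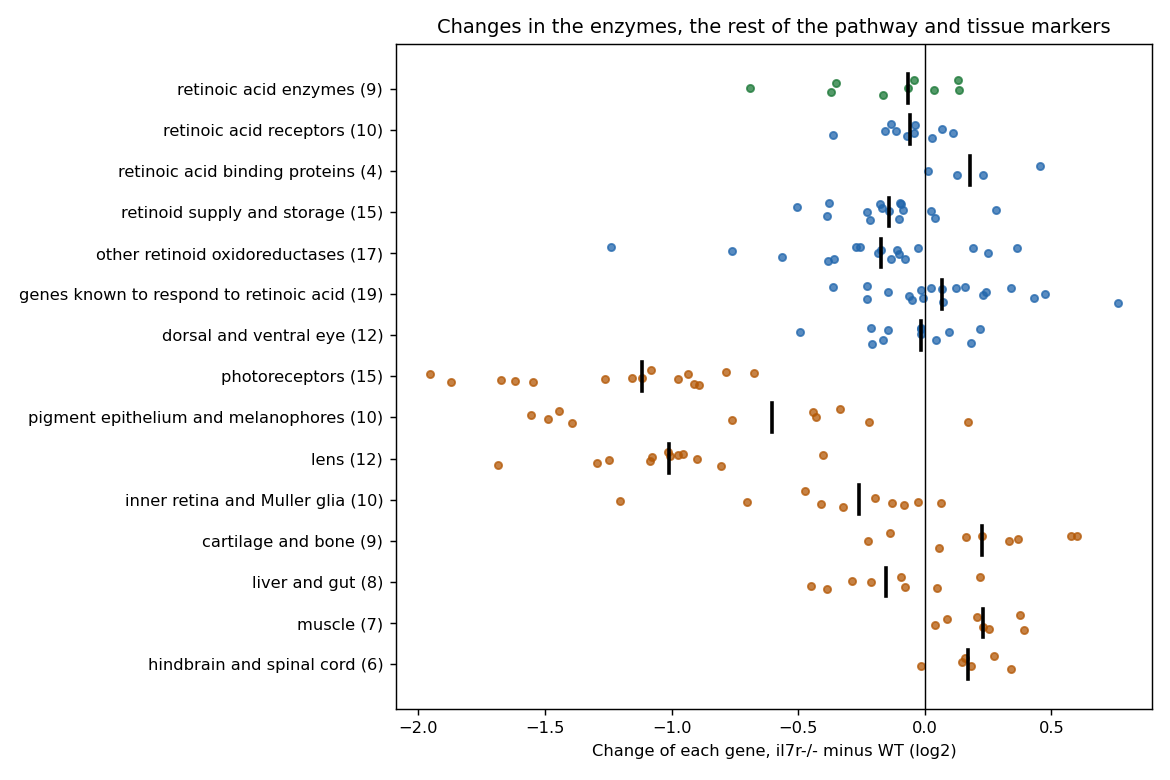
Change of each measured gene (points, x axis, log2 difference of *il7r*-/- minus WT) in the 9 enzymes (green), the other lists of the retinoic acid pathway (blue) and lists of tissue markers (orange), with the list median as a black line and the number of genes in brackets. The enzyme median of -0.07 lies near 0, while the photoreceptor and lens medians are -1.12 and -1.01.

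The RNA came from whole larvae, so that fewer cells of a type and less RNA in each cell cannot be told apart. The authors report shorter bodies, smaller eyes and delayed retinal differentiation of *il7r*-/- larvae at an earlier age. A difference in developmental stage at 4 dpf cannot be told apart from these either. Most markers of eye tissues, and of a list that joins pigment epithelium with melanophores, were lower in *il7r*-/- larvae, beside *cyp26c1* and *cyp26a1*. All 15 photoreceptor markers were below 0 with a median of -1.12, and their mean level per array was 6.05 to 6.50 in *il7r*-/- larvae and 7.20 to 7.83 in WT larvae. Of them *rcvrn3*, *guca1c* and *rbp3* were called, against 0.234% of all genes. The 12 lens markers had a median of -1.01 with none called, and the brightest, the crystallin genes *crybb1* and *cryba4*, differed by -0.97 and -1.29 (limma adjusted p = 0.178 and 0.127). The lens list had a mean level of 5.17 to 5.81 in *il7r*-/- larvae and 6.23 to 6.88 in WT larvae. Of 10 markers of pigment epithelium and melanophores 9 were below 0 with a median of -0.60, *rpe65a* was called, and the mean level was 4.84 to 5.11 in *il7r*-/- larvae and 5.47 to 5.97 in WT larvae. Of 10 markers of inner retina and Muller glia 9 were below 0 with a median of -0.26, *cabp5b* was called, and the mean level was 6.09 to 6.12 in *il7r*-/- larvae and 6.32 to 6.52 in WT larvae. The groups lay apart with *il7r*-/- lower in 12 photoreceptor, 11 lens, 7 pigment and 3 inner retina markers, against 13.4% of all genes. When any array except WT replicate 3 was left out none of these markers was called. Without that array 4 photoreceptor, 4 pigment and 1 inner retina markers were called, against 61 of all 19260 genes. By the methods' test without adjustment 12 photoreceptor, 10 lens, 5 pigment and 2 inner retina markers were called, against 2.47% of all genes. With the test limited to probe sets naming a single gene 8, 1, 4 and 1 were called, against 1.11% of all genes.

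Set beside these, *aldh1a2* and *aldh1a3*, read in whole larvae and not in the eye alone, had changes of -0.07 and -0.04. Both lie within the range of the 10 inner retina markers, -1.20 (*cabp5b*) to 0.06 (*elavl3*), but above their median of -0.26. Several of these 10 genes, *elavl3* among them, are also active outside the retina. In whole larvae their range and median are therefore not those of eye tissue alone. They also lie above all photoreceptor and lens markers, the highest of which were at -0.67 and -0.40. The part of eye tissue in the values of *aldh1a2*, *aldh1a3*, *cyp26c1*, *cyp26a1* and *dhrs3a* was not tested.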

How the data were processed

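RNA of pooled whole larvae, 3 *il7r*-/- and 3 WT samples at 4 dpf, was hybridized by the authors to the Affymetrix Zebrafish Gene 1.0 ST array. The methods name Expression Console and the submitters' notes RMA, which corrects background, normalizes arrays to one another and compresses low signals. The deposited values were read as log2 and used as they are. The genome build and annotation are not given in the sources used here. Genes were named through the platform's gene table, in which 855 probe sets name several genes and were given to none, and 53551 of the 75212 carry no name. A gene with several probe sets was represented by the brightest. Genotypes were compared in R 4.3.3 with limma 3.58.1 (lmFit and eBayes, two-sided, Benjamini-Hochberg over all probe sets), a procedure tested on simulated data. The exact permutation test was run in scipy 1.17.1. No filter on dim probe sets was applied. The 75212 deposited probe sets are more than the gene-level probe sets that the methods give for the array. Which of them are gene level or controls is not marked, so all were tested, and the adjusted p depends on that number. The number of arrays limits the precision.

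The enzymes and gene lists were chosen with earlier results of these data known. Named are all enzymes, receptors, binding proteins and dorsal and ventral eye genes, and in the other lists up to 4 called genes or, with none called, the 2 brightest, apart from those said to be chosen later. List genes that no probe set named alone were not analysed here. The alternatives were the methods' analysis of variance (adjusted or not), a robust prior with intensity trend, array weights, no fold threshold, quantile normalization, median centring, no dim probe sets (lowest tertile), probe sets naming 1 gene, averaging of all probe sets of a gene, a replicate block and leaving out each array.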

Additional observations from a re-analysis of the deposited data

How the results depend on the processing

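The count of 224 called probe sets over all that were deposited was 2447 by the methods' analysis of variance without adjustment and 3 after it. It was 412 with an intensity trend and robust prior, and 1 with the replicate number as a block. When each array was left out in turn it was 5 to 293, the highest without WT replicate 3. The count of 0 called enzymes became 1, *cyp26c1*, by the analysis of variance without adjustment and when only probe sets naming 1 gene were tested, and it was 0 under the other 15 alternatives, where the adjusted p of *cyp26c1* ran from 0.0778 to 0.330. The methods describe 3 batches of larvae but neither they nor the labels tie the replicate numbers to a batch. The numbers were not taken to pair the arrays. Deviations of same-numbered arrays from their group means had correlations of -0.01, 0.003 and 0.02. With the block 0 of all 19260 genes were called, so the lack of enzyme calls there says nothing of pairing. The 3 photoreceptor, 1 pigment and 1 inner retina calls became 0, 0 and 0. When each array was left out in turn the change ran from -0.1583 to 0.0267 for *aldh1a2*, from -0.155 to 0.115 for *aldh1a3*, from -0.0333 to 0.2833 for *rdh10b* and from -0.1083 to 0.17 for *dhrs3b*, so that their signs turned (*aldh1a2* without *il7r*-/- replicate 2, *aldh1a3* without *il7r*-/- replicate 3 or WT replicate 2, *rdh10b* without *il7r*-/- replicate 3, *dhrs3b* without *il7r*-/- replicate 2 or 3 or WT replicate 3). With array weights *dhrs3b* was at -0.0212. The changes of *cyp26a1*, *cyp26b1*, *cyp26c1*, *dhrs3a* and *rdh10a* kept their sign under all 17 alternatives. Only array weights, quantile normalization, median centring and leaving out an array could alter a change. The other alternatives give the same change by construction. Synthesis minus breakdown stayed between 0.21 and 0.32 under the alternatives computed for it, none of which left out *cyp26c1*. Of these, median centring, averaging of probe sets and the replicate block cannot move it. Low signal limits *rdh10b* most, which was not tested without the lowest tertile of probe sets. The causes were not tested.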

Other observations

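Markers of tissues outside the eye were also read, and none was called. Over all 19260 genes 8661 changes were above 0 and 10599 below. All 7 measured muscle markers were above 0 with a median of 0.23, and the brightest, the myosin light chain gene *mylpfa*, overlapped with a change of 0.04. *ckma*, the muscle creatine kinase gene, *myog* and *atp2a1* lay higher in *il7r*-/- larvae on every array, by 0.38, 0.39 and 0.25, which is 3 of 7 genes against 8.84% of all genes. Of 9 cartilage and bone markers, tissues in which *cyp26b1* is known to act, 7 were above 0 with a median of 0.23. *col2a1a*, the main collagen gene of cartilage, had 8.57, 8.25 and 8.21 in *il7r*-/- larvae and 7.87, 7.77 and 7.59 in WT larvae, a change of 0.60 (limma adjusted p = 0.199), and *col11a2*, *matn1* and *runx2b* also lay apart, at 0.58, 0.37 and 0.33, which makes 4 of 9 higher against 8.84% of all genes. *sox9a* overlapped, at 0.16. Of 6 hindbrain and spinal cord markers, of which *hoxb3a*, *hoxb4a* and *pax2a* stand in other lists too, 5 were above 0 with a median of 0.17. Of 8 liver and gut markers 6 were below 0 with a median of -0.15. The brightest, the gut genes *vil1* and *fabp2*, overlapped with changes of -0.29 and -0.45, and WT replicate 3 had the highest mean level, 4.66, against 4.34 in both other WT arrays and 4.25 to 4.37 in the *il7r*-/- arrays. Genes of these lists named here beyond the 2 brightest of each were chosen after their values were seen.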
